A study of Mus musculus with 51 samples.

Results

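Chromatin of 10 genes that act in spermatogonial stem cells or their differentiation was read in male germ cells and testis of mice: Id4, Etv5, Lin28a, Sohlh2, Uchl1, Foxo1, Dmrt1, Zbtb16, Kit and Gfra1. The 10 genes were taken by name from the 21938 protein-coding genes of GENCODE M21. Promoters were windows reaching 1000 bp to each side of any transcription start site (TSS) annotated in mm10, and all other regions that overlapped the gene were gene-body regions. All 10 genes had at least 1 region at a promoter in each of the 5 count tables. The deposited tables held 41 regions at these genes of 81887 for ATAC of the strain pair, 59 of 95109 for ATAC of the Hells pair, 56 of 91909 for H3K9ac, 38 of 78960 for H3K4me3 and 27 of 80892 for the F1 alleles.

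The germ cells were enriched from males at 12 to 14 days, when spermatogonia and the first spermatocytes are present together. ATAC-seq, in which a transposase cuts open DNA, was read in C57BL/6J (B6, n = 2), in B6-Prdm9CAST-KI (KI, n = 2), a B6 strain with the CAST allele of Prdm9, in Hells wt (n = 2), in Hells CKO (n = 3) and in (B6xCAST) F1 hybrids (n = 2). Acetylated histone H3 (H3K9ac) was read in 3 libraries of B6, 2 of KI, 1 of Spo11/Spo11, a mutant without meiotic breaks, and 1 of the F1. Trimethylated histone H3 (H3K4me3) was read in 3 libraries of Hells CKO, 1 of Hells wt, 2 of Spo11/Spo11 and 1 of Spo11/+. HELLS was immunoprecipitated from KI testis at 12 to 14 days (n = 2, with 1 IgG and 1 input library), and DMC1 from testis at 6 weeks, given as 1 merged peak list for Hells het and 1 for Hells CKO. The labels do not say which Cre made the conditional knockout, nor how complete the loss of HELLS was, and no table measured RNA or protein.

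Spermatogonial stem cells receive GDNF from Sertoli cells through GFRA1 and its partner RET. They hold ID4, ETV5 and the zinc-finger protein ZBTB16 (PLZF), and differentiating spermatogonia turn on the receptor tyrosine kinase KIT before they enter meiosis. In meiosis the zinc-finger methyltransferase PRDM9 chooses recombination hotspots and marks them with H3K4me3, HELLS is a chromatin remodeller that works with PRDM9 there, SPO11 cuts the DNA and DMC1 coats the cut ends. When PRDM9 is missing in mouse, breaks are known to fall at promoters instead.

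Region levels are given as CPM, counts of a region relative to the sum over all regions of that library, corrected for its composition. A level compared between genes is given per kb of region, except where CPM of the whole region is named. Totals in regions ranged from 27952728 to 34572929 counts for ATAC of B6 and KI and from 6416704 to 11352108 for ATAC of the Hells pair. They ranged from 13195275 to 30233934 for H3K9ac and from 13321006 to 42007820 for H3K4me3. An H3K9ac library stood apart: B6 replicate 2 had a median of 6.99 CPM over the 7272 hotspot regions (a DMC1 peak of Hells het and no promoter), against 1.68 and 1.70 CPM in the other B6 libraries. The KI libraries had 1.30 and 1.51 CPM there, and the Spo11/Spo11 library 4.395 CPM. Results that rest on that library are given with and without it. Log2 fold changes, standard errors (SE) and adjusted p values are from edgeR's quasi-likelihood test with Benjamini-Hochberg adjustment over all regions of a table, and a region was called at an adjusted p below 0.05.

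All 10 promoters carried open chromatin, H3K9ac and H3K4me3, at levels that spread several-fold among the genes. In B6, Etv5, an ETS factor induced by GDNF, had the highest ATAC level at 35.8 ± 6.66 CPM per kb (SD, n = 2). Foxo1, a forkhead factor of stem-cell maintenance, stood at 29.6 ± 2.98 CPM per kb. Below them came Uchl1 (a ubiquitin hydrolase) at 22.6, Dmrt1 (a DM-domain factor that holds back meiosis) at 22.2, and Id4 (an inhibitor of helix-loop-helix factors) at 21.2 CPM per kb. Next were Kit at 16.8, Sohlh2 (a helix-loop-helix factor of differentiation) at 16.1, Zbtb16 at 10.8, Gfra1 at 8.24 and Lin28a (an RNA-binding protein) at 7.31 CPM per kb. The median over all promoter regions was 11.5 and 11.9 CPM per kb in the B6 libraries, so that 7 of the 10 genes lay above it in both, Gfra1 and Lin28a lay below it in both, and Zbtb16 lay above it in replicate 1 only. The ranges of neighbouring genes were apart after Foxo1, Id4, Sohlh2 and Zbtb16, and overlapped elsewhere.

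H3K9ac in B6 put Foxo1 first (11.1 ± 1.40 CPM per kb, n = 3) and Gfra1 last (4.23 ± 0.268), and the range of every gene overlapped that of its neighbour. H3K4me3 in Hells CKO ran from 22.3 ± 4.58 CPM per kb at Foxo1 to 11.5 ± 1.35 at Gfra1 and 8.86 ± 0.764 at Lin28a (n = 3), and only the last pair was apart. Lin28a and Gfra1 thus held the lowest pair of places in both ATAC and H3K9ac of B6 and in H3K4me3 of the CKO. The deposited segmentation assigns the genome of C57BL/6J germ cells to 11 numbered chromatin states. States 1 and 2 hold 39.0% and 27.1% of the first TSSs of protein-coding genes. State 1 covered most of the promoter window of 9 of the 10 genes, and state 2 covered 80.01% of that of Gfra1. At the first TSS itself, which is what those shares count, Etv5, Foxo1, Zbtb16 and Gfra1 lay in state 2 and the other genes in state 1.

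**Figure D1:**
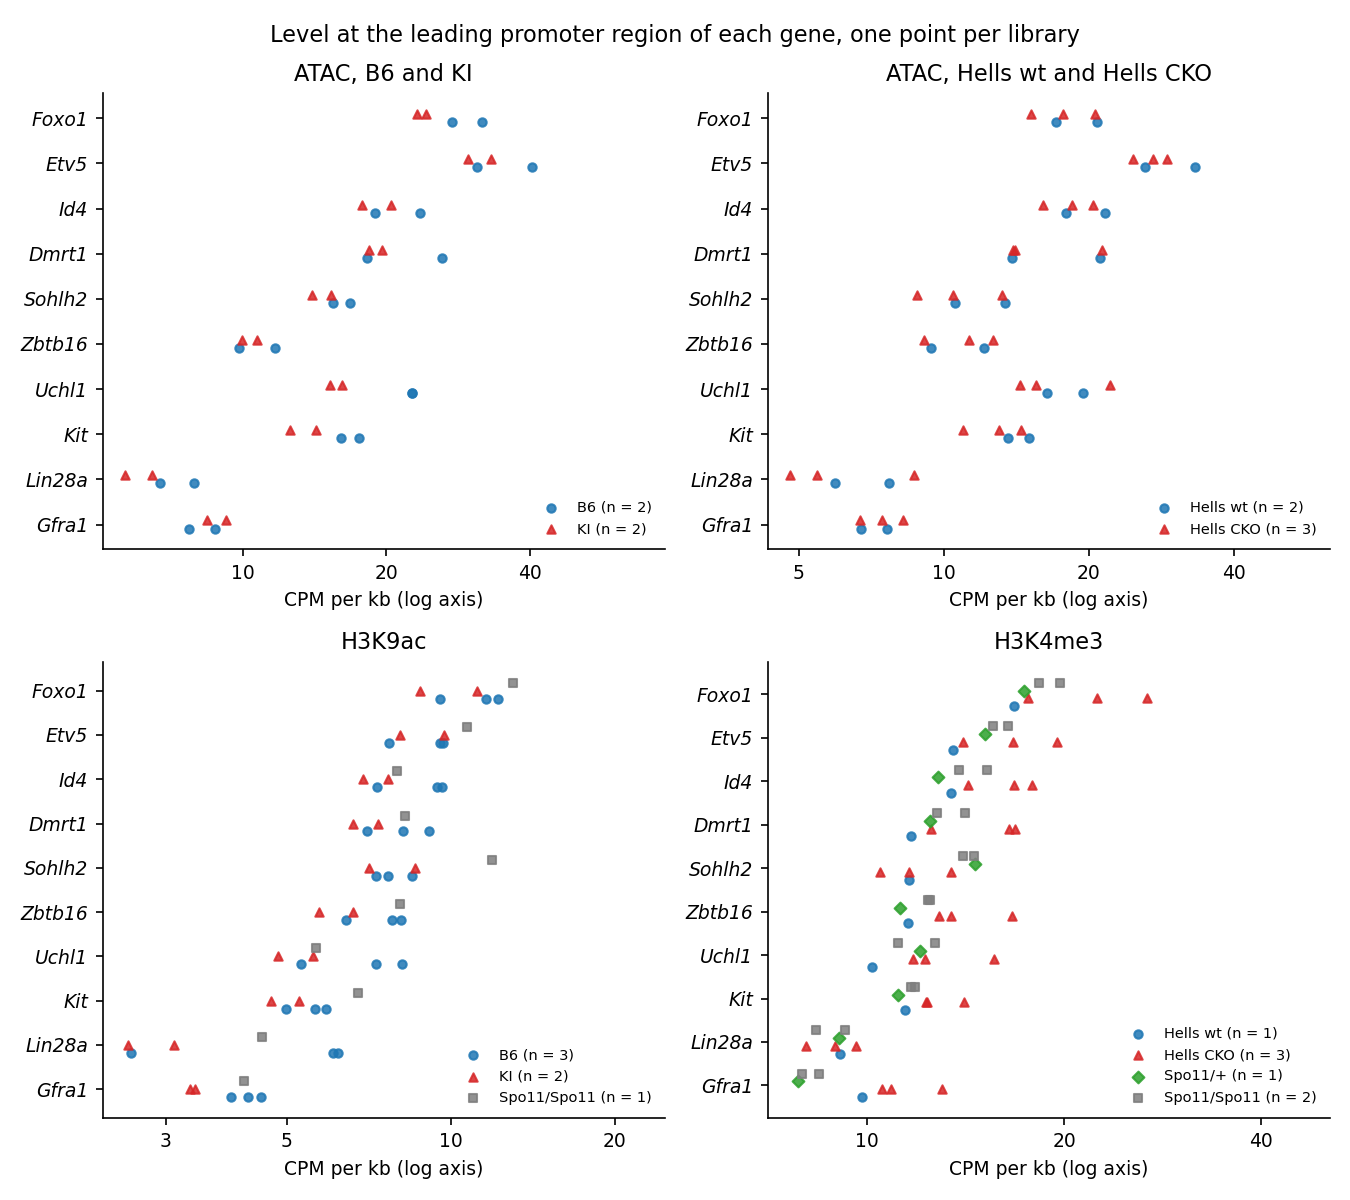
Level of the leading promoter region of each of the 10 genes in every library, in CPM per kb of region, for ATAC of B6 and KI, ATAC of Hells wt and Hells CKO, H3K9ac and H3K4me3. Points are single libraries. Foxo1 and Etv5 are among the highest and Lin28a and Gfra1 among the lowest, and libraries of different groups lie close together within most genes.

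Break mapping separated Hells CKO from Hells het at these genes, as it did over all protein-coding genes. In Hells CKO testis a DMC1 peak lay at the first-TSS promoter of 7 of the 10 genes (Id4, Etv5, Lin28a, Sohlh2, Uchl1, Foxo1 and Dmrt1), and none of the 10 had one in Hells het. Over all 21938 protein-coding genes the shares were 37.5% in the CKO list of 14692 peaks and 3.99% in the het list of 15831. Among the 15334 genes with an H3K4me3 region at the first TSS, the CKO share was 51.7%, and it climbed with the H3K4me3 level from 12.3% through 36.3%, 59.2% and 73.7% to 77.2% over 5 equal groups of genes ordered by that level. By that level, in CPM of the whole region, Sohlh2 lay in the 2nd group from the bottom and Foxo1 in the 5th. Lin28a, Uchl1 and Kit lay in the 3rd, and Id4, Etv5, Dmrt1, Zbtb16 and Gfra1 in the 4th. The count of 7 of 10 was not tested against the shares of these groups. With 1 merged list per genotype there is no spread between replicates and no test.

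The CKO peaks sat on the starts. Their midpoints lay 189 bp downstream of the first TSS at Id4, 200 bp at Etv5, 592 bp at Uchl1, 692 bp at Sohlh2 and 884 bp at Dmrt1, and 82 bp upstream at Foxo1. At Lin28a the peak (chr4:134019021-134020574) lay wholly upstream, with its midpoint 956 bp before the TSS. Dmrt1 had a further CKO peak at its 3′ end (chr19:25603414-25607674), 4757 bp from the TSS of its neighbour Dmrt3. The peaks at Uchl1 and Foxo1 also covered the starts of the transcripts Uchl1os and Gm20402, so that these peaks cannot be assigned to 1 transcript. H3K4me3 at the Dmrt1 3′ region (chr19:25604235-25612525) was 108 ± 3.26 CPM in Hells CKO (n = 3) and 101 CPM in Hells wt, a log2 difference of 0.11.

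Kit, Zbtb16 and Gfra1 had no CKO peak, although their promoter H3K4me3 was not the lowest of the set. In CPM of the whole region, H3K4me3 in Hells CKO stood at 44.5 ± 3.46 at the Kit promoter, 57.1 ± 8.12 at Zbtb16 and 53.9 ± 6.34 at Gfra1 (SD, n = 3). Among the genes with a peak, Sohlh2 stood at 35.1 ± 4.44, Lin28a at 40.3 ± 3.47, Uchl1 at 43.3 ± 6.91, Id4 at 61.6 ± 7.01, Etv5 at 70.8 ± 11.6, Dmrt1 at 71.0 ± 11.1 and Foxo1 at 130 ± 26.7 CPM. The ranges of the groups with and without a peak therefore overlapped. Per kb of region the means were 12.9 at Kit, 14.3 at Zbtb16 and 11.5 at Gfra1. Those of the genes with a peak ran from 8.86 at Lin28a and 11.8 at Sohlh2 to 22.3 at Foxo1. On that scale Gfra1 lay below all of them but Lin28a. Of the 34 other spermatogonial genes listed, 7 had a CKO peak at the first TSS and 3 a het peak. The 7 were Utf1, Taf4b, Lin28b, Dazl, Ddx4, Stra8 and Upp1, named after the peaks were seen, and Dazl and Ddx4 are RNA regulators of germ cells. Of the 25 GDNF and KIT signalling partners 9 and 2 had one, and of the 24 meiotic prophase genes 21 and 2.

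CpG content also varied over these promoters. RefSeq promoters of mm10, 300 bases each, matched 8 of the 10 genes, and 16522 genes in all. The number of CpG dinucleotides in them was 39 at Id4, 37 at Etv5, 31 at Foxo1, 20 at Kit, 17 at Sohlh2, 12 at Gfra1, 10 at Lin28a and 9 at Uchl1, against a median of 14 over all. The share of genes with a CKO DMC1 peak was 5.06% at 0 to 5 CpGs, 37.3% at 6 to 15, 60.8% at 16 to 25 and 63.3% at 26 or more. Kit and Sohlh2 are thus close in CpG number and lie on opposite sides of the break list. The bases before the first annotated transcript base are shown for Id4, the richest in CpG, and for this pair (RefSeq, mm10, plus strand, CpG in capitals), at chr13:48260866-48261115, chr3:55181794-55182027 and chr5:75574737-75574915.
Id4: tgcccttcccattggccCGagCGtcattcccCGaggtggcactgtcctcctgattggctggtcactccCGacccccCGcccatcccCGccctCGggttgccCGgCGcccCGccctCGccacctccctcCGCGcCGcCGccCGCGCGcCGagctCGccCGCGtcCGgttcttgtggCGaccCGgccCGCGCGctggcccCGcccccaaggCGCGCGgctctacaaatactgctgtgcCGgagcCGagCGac
Sohlh2: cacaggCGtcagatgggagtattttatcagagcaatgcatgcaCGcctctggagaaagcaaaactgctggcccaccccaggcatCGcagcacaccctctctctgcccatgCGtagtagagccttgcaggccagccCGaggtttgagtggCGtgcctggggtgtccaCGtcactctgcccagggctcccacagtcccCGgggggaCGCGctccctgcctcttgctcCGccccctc
Kit: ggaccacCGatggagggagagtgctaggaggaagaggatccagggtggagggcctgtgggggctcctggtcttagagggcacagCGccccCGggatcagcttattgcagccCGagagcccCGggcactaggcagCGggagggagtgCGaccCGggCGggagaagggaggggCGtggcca

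The stretches hold 35 CpGs in 250 bases at Id4, 11 in 234 bases at Sohlh2 and 10 in 179 bases at Kit. The first 2 genes have a CKO break peak over their start and Kit does not.

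In Hells het, breaks fell inside 4 of the 10 genes and away from their first TSS. The het list held 9 peaks there: 2 in Foxo1, 1 in Dmrt1, 3 in Zbtb16 and 3 in Kit. These genes are 81807 to 181926 bp long, and Gfra1, the longest of the 10 at 220306 bp, held none. Over all protein-coding genes 19.0% had a het peak in the gene body, and genes differ in length. In Foxo1 the peaks were centred 18116 and 61561 bp from the first TSS, in Dmrt1 70380 bp, in Zbtb16 29656, 136226 and 143521 bp, and in Kit 18070, 59570 and 66458 bp. The last of these, chr5:75639617-75643130, also covered an annotated internal start of Kit, 290 bp from its midpoint, the only het peak at an annotated start of the 10 genes. Of all protein-coding genes 7.72% had a het peak at one of their starts. No het peak overlapped a CKO peak at these genes.

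State 7 of the segmentation marks such sites: it covers 0.562% of the genome and holds 67.5% of the midpoints of het DMC1 peaks. Kit had 3 state 7 segments, all with a het DMC1 peak, Foxo1 had 2, both with one, and Zbtb16 had 4, of which 3 had one. The other 7 genes had no state 7 segment. The het peak of Dmrt1 was the only one of the 9 that met no state 7 segment, with its midpoint in state 3. A peak of Zbtb16 and the peak at the internal start of Kit overlapped state 7 with midpoints in states 8 and 6. By length, the rest of the gene bodies differed: state 8 covered 71.8% of Gfra1, 45.7% of Zbtb16 and 29.7% of Lin28a, state 6 covered 68.0% of Sohlh2 and 53.7% of Dmrt1, and state 11 covered 82.0% of Etv5.

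**Figure D2:**
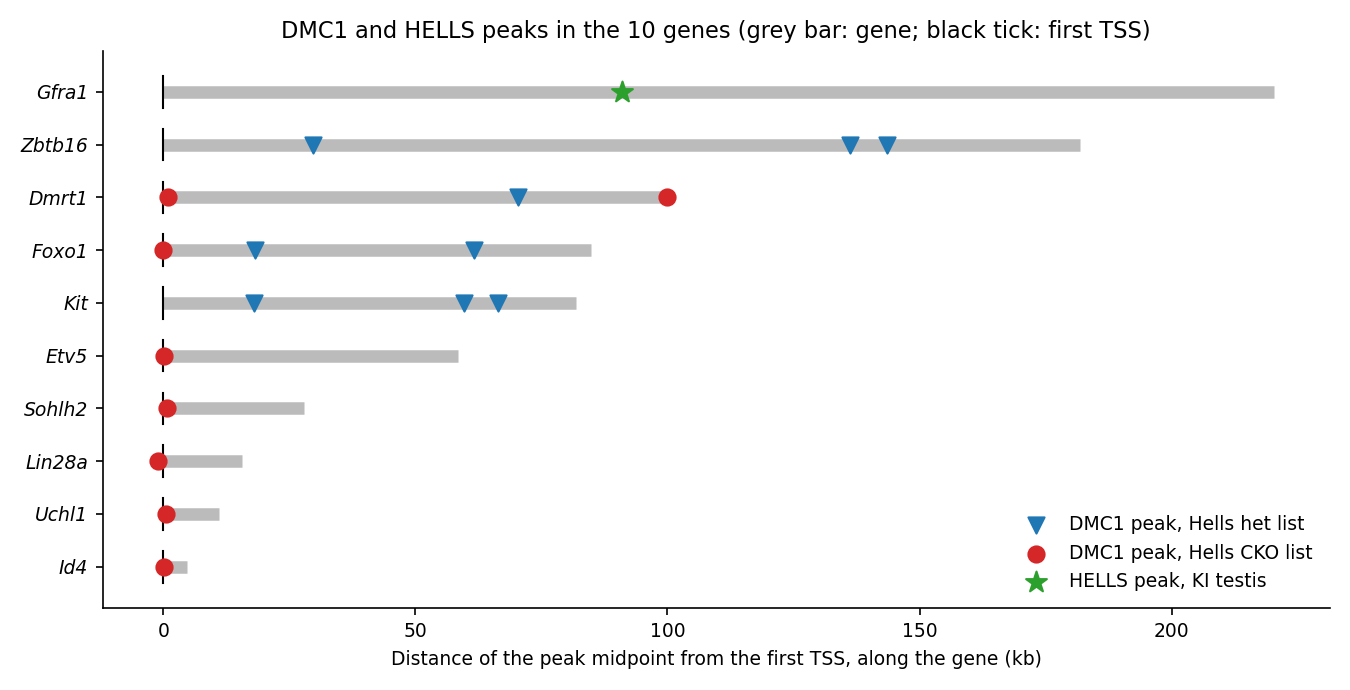
Break and HELLS peaks along each of the 10 genes, as distance from the first TSS in the direction of transcription. Each row is a gene, drawn as a grey bar with a black tick at the first TSS. Markers are peak midpoints: triangles for the Hells het DMC1 list, circles for the Hells CKO DMC1 list and a star for the HELLS list. CKO peaks cluster at 0 in 7 genes, the 9 het peaks lie inside 4 genes, and the only HELLS peak is in Gfra1.

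Intragenic break sites of Kit, Foxo1 and Zbtb16 fell in H3K4me3 in Hells CKO, while no leading promoter region of the 10 genes was called lower. Among the 28 H3K4me3 regions other than leading promoter regions, 5 fell in Hells CKO against Hells wt, and all 5 held a het DMC1 peak. Over all regions of the assay 11.7% were called, with 0.0279% higher and 11.7% lower. Hells wt has 1 library, assumed to vary like the other groups. Against all 4 HELLS-competent libraries together (Hells wt, Spo11/+ and both Spo11/Spo11), 11 of the 28 fell, of which 10 held a het DMC1 peak, where 21.1% of all regions were called, 3.74% higher and 17.4% lower. For comparison, 10480 of the 11558 hotspot regions of the whole assay fell in that test, with a median log2 fold change of −2.84. The pooled comparison group spans genotypes and library batches.

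The region at the internal annotated start of Kit (chr5:75641803-75642598), a promoter region of Kit other than its leading one, had the deepest fall. H3K4me3 there stood at 0.653, 0.568 and 0.367 CPM in the 3 Hells CKO libraries, 4.82 CPM in Hells wt, 7.22 CPM in Spo11/+ and 6.77 and 5.73 CPM in Spo11/Spo11. Every CKO library was far below every other library. The log2 fold change was −3.17 (SE 0.366, adjusted p = 0.000414) against Hells wt and −3.53 (SE 0.270, adjusted p = 1.23e-05) against all HELLS-competent libraries. CKO replicate 2 and Hells wt share a library batch, and within it the difference was −3.09. At the promoter of Kit the same libraries had 42.5, 42.6 and 48.5 CPM in Hells CKO, 39.5 CPM in Hells wt, 38.5 CPM in Spo11/+ and 40.3 and 40.8 CPM in Spo11/Spo11.

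A region of Kit at chr5:75634003 onwards stood at 0.155, 0.671 and 0.513 CPM in Hells CKO, 2.34 in Hells wt, 4.12 in Spo11/+ and 2.76 and 3.48 in Spo11/Spo11. It fell by 2.45 on the log2 scale against Hells wt (adjusted p = 0.0179), and the call was lost without CKO replicate 3, where adjusted p values ranged from 0.00201 to 0.0652 over the libraries left out. Within the shared batch it differed by −1.80. In Foxo1 the region from 52329403 stood at 0.218, 0.413 and 0.660 CPM in Hells CKO and 2.55 in Hells wt. It had 3.23 CPM in Spo11/+ and 2.64 and 2.97 CPM in Spo11/Spo11, so that the groups did not overlap. The log2 fold change against Hells wt was −2.57 (SE 0.534, adjusted p = 0.00773), and −2.63 within the shared batch.

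In Zbtb16 the regions from 48692403 and 48700003 fell against Hells wt by 2.42 and 2.61 on the log2 scale (adjusted p = 0.0443 and 0.0433). The first of them stood at 0.155, 0.929 and 0.257 CPM in Hells CKO, 2.20 in Hells wt, 3.46 in Spo11/+ and 3.55 and 3.29 in Spo11/Spo11. Both calls were lost without CKO replicate 3 and under another scaling (relative log expression), with adjusted p values from 0.00701 to 0.198 for the first and from 0.0139 to 0.138 for the second. Within the shared batch the first differed by −1.24. Against all HELLS-competent libraries, both regions fell whichever library was left out.

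The Dmrt1 hotspot did not follow. The region from 25574432 stood at 1.21, 1.29 and 2.71 CPM in Hells CKO, 1.20 in Hells wt, 1.03 in Spo11/+ and 1.29 and 0.905 in Spo11/Spo11. Its neighbour from 25575288 stood at 2.52, 3.46 and 4.44 CPM in Hells CKO, 3.40 in Hells wt, 3.76 in Spo11/+ and 3.14 and 3.64 in Spo11/Spo11. The groups overlapped in both. Their log2 differences were 0.53 and 0.03 against Hells wt and 0.66 (adjusted p = 0.210) and −0.01 against all HELLS-competent libraries, and whether they differ from the other hotspots was not tested. The 10 regions of Kit, Foxo1 and Zbtb16 that held a het peak all fell against all HELLS-competent libraries, by between 1.98 and 3.53 on the log2 scale. The 5 of them not yet named were those of Foxo1 from 52285803 (−2.54) and 52328876 (−2.42), of Kit from 75592803 (−2.76) and 75640312 (−1.98) and of Zbtb16 from 48806203 (−2.40). The only called region without a het peak, in a Zbtb16 intron from 48668522, stood at 0.0933, 0.826 and 0.257 CPM in Hells CKO, 1.20 in Hells wt, 1.13 in Spo11/+ and 1.26 and 1.09 in Spo11/Spo11. Its log2 difference was −1.69 (adjusted p = 0.0499), and the call was lost when any library but CKO replicate 2 was left out (adjusted p from 0.00192 to 0.204) and under both other scalings. Spo11/Spo11 against Spo11/+, which differ in whether breaks form, gave no call at any member region and 0% of all regions (159 passed an unadjusted p of 0.05).

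**Figure D3:**
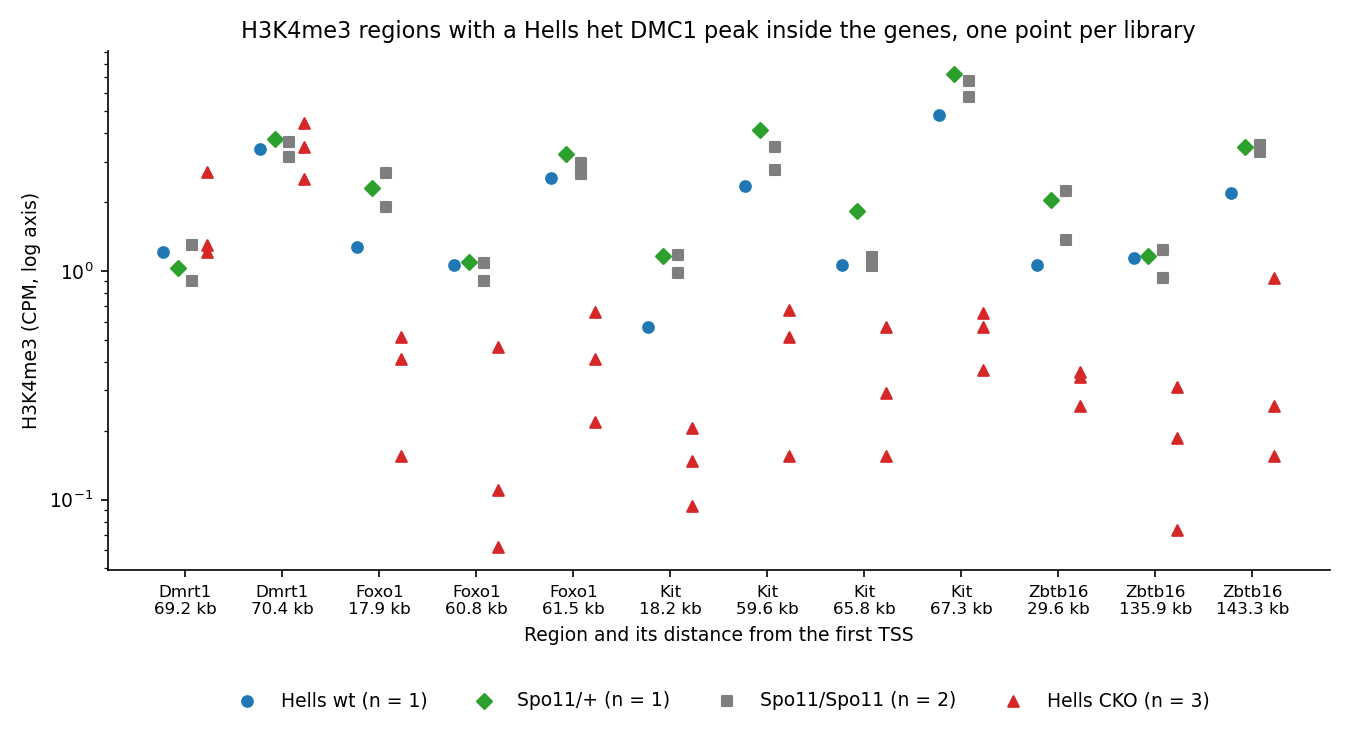
H3K4me3 in CPM on a log axis at the 12 regions of Kit, Foxo1, Zbtb16 and Dmrt1 that hold a het DMC1 peak. Points are single libraries of Hells CKO, Hells wt, Spo11/+ and Spo11/Spo11. The 3 CKO libraries lie below the others at the regions of Kit, Foxo1 and Zbtb16, and among them at the 2 regions of Dmrt1.

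The middle 200 bases of these sites are shown for Kit and Zbtb16, where H3K4me3 fell, and for Dmrt1, where it did not (mm10, plus strand, CpG in capitals), at chr5:75642100-75642299, chr9:48692800-48692999 and chr19:25575897-25576096.
Kit: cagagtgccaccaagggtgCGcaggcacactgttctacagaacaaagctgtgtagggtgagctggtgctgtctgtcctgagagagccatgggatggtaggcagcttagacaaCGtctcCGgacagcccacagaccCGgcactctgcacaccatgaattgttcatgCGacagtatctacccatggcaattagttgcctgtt
Zbtb16: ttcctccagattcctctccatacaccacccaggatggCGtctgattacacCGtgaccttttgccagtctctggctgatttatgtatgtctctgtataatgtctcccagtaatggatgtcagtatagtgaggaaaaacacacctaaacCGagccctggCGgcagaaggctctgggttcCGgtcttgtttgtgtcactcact
Dmrt1: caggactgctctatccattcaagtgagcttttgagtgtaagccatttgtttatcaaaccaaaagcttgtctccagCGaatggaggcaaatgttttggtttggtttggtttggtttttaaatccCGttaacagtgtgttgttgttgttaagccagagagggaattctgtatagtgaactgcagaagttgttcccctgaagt

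The stretches hold 5, 5 and 2 CpGs. Those of Kit and Zbtb16 are the middles of H3K4me3 regions, and that of Dmrt1 is the middle of its het DMC1 peak. At the middle of the het peak itself, the CpG number was 5 at this Kit site and 0 at this Zbtb16 site. Over the whole lists, the median number of CpGs in the middle 200 bases of a peak was 1 for het DMC1, 8 for CKO DMC1 and 6 for HELLS.

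At the leading promoters of the 10 genes, H3K4me3 in Hells CKO against Hells wt gave no call, with 0 of 10 called where 3.55% of all promoter regions were, 3.5% lower (0 also at an unadjusted p of 0.05). Log2 differences ran from −0.04 at Lin28a to 0.41 at Foxo1, with a median of 0.29, against 0.19 over all promoter regions. All 3 CKO libraries were above the single Hells wt library at 8 of the 10, and the groups overlapped at Lin28a and Sohlh2. Such gaps were not counted over all promoter regions, of which 17062 of 24840 had a log2 difference above 0. Against all HELLS-competent libraries 1 of 10 was higher, where 12.3% of promoter regions were called, 6.84% higher and 5.5% lower, and the medians were 0.22 and 0.18. This was Gfra1, the GDNF receptor of stem cells (chr19:58452550-58457247).

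H3K4me3 at the Gfra1 promoter stood at 49.4, 51.1 and 61.1 CPM in Hells CKO, 46.1 in Hells wt, 36.7 in Spo11/+ and 39.6 and 37.4 in Spo11/Spo11. The CKO libraries were above the others, with Hells wt nearest to them. The log2 difference was 0.43 (SE 0.130, adjusted p = 0.0324), and 0.15 within the batch that CKO replicate 2 shares with Hells wt. The call was lost when CKO replicate 3, Spo11/+ or either Spo11/Spo11 library was left out (adjusted p from 0.0133 to 0.146 over the 7 libraries), and when only library size was used for scaling (0.31, adjusted p = 0.119). Zbtb16 and Kit also did not overlap, with all CKO libraries higher, at log2 differences of 0.26 and 0.16. How often this held over all promoter regions was not counted.

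Promoters of Sertoli cell genes moved with this comparison. Of the 15 Sertoli markers, which nurse and signal to germ cells in the tubule, 11 had higher H3K4me3 in Hells CKO than in all HELLS-competent libraries, with a median log2 difference of 0.60. Their summed level was 923 to 1356 CPM in the CKO libraries and 728 to 843 CPM in the others, and none of the markers was at 0 in any library. Against Hells wt alone 0 of the 15 were called, with a median of 0.54. Of the 5 Leydig markers measured 2 were higher, of the 14 peritubular, stromal and endothelial markers 1, of the 3 blood markers 0, and of the 24 meiotic prophase genes 0. The part of these levels in the Gfra1 difference was not tested, and fewer cells of a type cannot be told apart from less of a mark per cell in such bulk libraries.

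The signalling partners of the receptors were counted in the same test. Of the 24 GDNF and KIT partners measured, 7 were higher in Hells CKO and 0 lower, where 6.84% of all promoter regions were higher and 5.5% lower. The 3 with the lowest p were Gfra2 (a receptor of the same family, log2 difference 0.45), Socs2 (a brake on cytokine signalling, 0.53) and Kitl (the ligand of KIT, 0.61), which with Gdnf is also on the Sertoli list. Of the 33 other spermatogonial genes measured, 6 were higher and 0 lower, led by Epha2 (0.76), Ccnd2 (0.58) and Pax7 (0.42). Ret is on both lists and counts among the higher genes of each. Against Hells wt alone 0 genes of either list were called.

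Loss of HELLS left accessibility without a detected change at the regions of these genes that ATAC read. ATAC in Hells CKO against Hells wt called 0 of the 10 promoters, where 0.174% of all promoter regions were called, and 0 of the 49 other regions, where 0.382% of all regions were called and 0.382% were lower. At an unadjusted p of 0.05, 0 of the 10 promoters and 1 other region, in Gfra1, passed. Of the 49, only 2 held a het DMC1 peak, both at Dmrt1. No ATAC region at the het peaks of Kit, Foxo1 and Zbtb16 was counted, so that this comparison could not read them. Log2 differences at the promoters ran from −0.16 at Kit to 0.06 at Gfra1, and the groups overlapped at all 10. At Dmrt1 the libraries had 49.8, 32.9 and 32.5 CPM in Hells CKO and 49.3 and 32.5 CPM in Hells wt. Replicate 1 of CKO and wt, which share a library batch, were the high pair. The Dmrt1 hotspot showed differences of 0.06 and 0.03 in its 2 ATAC regions, and within the batches that hold both genotypes the direction turned, with −0.19 and −0.07 in the first region and −0.47 and −0.15 in the second.

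The Prdm9 allele was compared by B6 against KI, whose library batches follow the strain, so that batch and strain cannot be told apart. At the promoters, ATAC was lower in KI at 1 of the 10 genes, where 3.37% of all promoter regions were called, 2.43% higher and 0.942% lower. The median over the 10 genes was −0.20, against −0.13 over all promoter regions. The gene was Uchl1 (chr5:66675109-66677364), with 51.0 and 51.1 CPM in B6 and 36.6 and 34.4 CPM in KI. The log2 difference was −0.53 (SE 0.150, adjusted p = 0.0452), and the call was lost without either KI library (adjusted p from 6.34e-05 to 0.906 over the 4 libraries left out). Kit followed with 39.0 and 35.7 CPM in B6 and 27.9 and 31.6 CPM in KI (−0.33, adjusted p = 0.365), and Gfra1 had the only positive difference, 0.10. Without B6 replicate 2 the count was 5, with Dmrt1, Etv5, Foxo1 and Kit added, but 21.3% of all promoter regions were then lower and 3.9% higher.

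H3K9ac called 0 of the 10 promoters in KI against B6, where 5.09% of all promoter regions were called, 4.91% higher and 0.184% lower (0 at an unadjusted p of 0.05, and 0 by DESeq2). The largest difference was at Lin28a, −0.81 (SE 0.416, adjusted p = 0.293). Its libraries had 29.4, 12.5 and 30.0 CPM in B6 and 15.03 and 12.3 CPM in KI, so that B6 replicate 2, which also stood apart at hotspots, lay with the KI libraries. Without it, 5 promoters were lower in KI: Lin28a by 1.11, Uchl1 by 0.57, Id4 by 0.39, Gfra1 by 0.38 and Zbtb16 by 0.36 on the log2 scale, where that fit called 31.6% of all promoter regions lower and 20.2% higher. With all libraries, the groups failed to overlap at Gfra1 alone, with 19.0, 17.7 and 20.1 CPM in B6 and 15.2 and 14.9 CPM in KI (−0.33, adjusted p = 0.253). The share of all promoter regions without such overlap was not counted.

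Markers of other cells moved along the same libraries in H3K9ac. The 7 Leydig markers measured were all below 0 in KI against B6 (median −0.47, 0 called), with summed levels of 156, 105 and 161 CPM in B6 and 118 and 94.9 CPM in KI. The 15 Sertoli markers summed to 919, 710 and 851 CPM in B6 and 839 and 631 CPM in KI. The 14 peritubular, stromal and endothelial markers summed to 321, 236 and 318 CPM in B6 and 252 and 244 CPM in KI, and the 4 blood markers to 39.6, 49.9 and 40.6 CPM in B6 and 51.2 and 50.1 CPM in KI. The 24 meiotic prophase genes had a median of 0.27 (0 called) and summed to 706, 780 and 687 CPM in B6 and 872 and 795 CPM in KI. B6 replicate 2 was thus on the KI side of the other B6 libraries in each list, and no marker was at 0. The part of these levels in the promoter differences was not tested. Of the 4 blood markers, Ptprc was called higher in KI (log2 difference 4.75, adjusted p = 0.0379, mean of 0.200 CPM in B6). Of the 11 spermatid genes measured, Tssk2 (4.17, adjusted p = 0.00759) and Prm2 (2.91, adjusted p = 0.0290) were higher. Their B6 means were 0.575 and 0.904 CPM. Over all promoter regions 4.91% were called higher. Of the other spermatogonial genes, 32 were measured in H3K9ac and 30 in ATAC, and 1 was called in each, Mcam, a surface adhesion protein. It was lower in KI in both H3K9ac (−0.78, SE 0.134, adjusted p = 0.0210) and ATAC (−0.66, SE 0.146, adjusted p = 0.00784). Over all promoter regions 0.184% and 0.942% were lower. Mcam also held a het DMC1 peak at its first TSS, and the part of that break site in the differences was not tested.

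Some intron regions of Gfra1, Etv5 and Zbtb16 were higher in KI, at shares near those of all regions. In ATAC, 3 of the 31 regions outside the leading promoters were higher in KI and 0 lower, where 9.41% of all regions were called, 7.14% higher and 2.27% lower. All 3 lay in introns of Gfra1. The strongest, chr19:58363720-58365925, about 91 kb from the first TSS, stood at 3.42 and 3.27 CPM in B6 and 54.8 and 47.0 CPM in KI. Its log2 difference was 3.93 (SE 0.177, adjusted p = 2.82e-07). The region at chr19:58246384-58247445 rose from 1.97 and 1.43 to 14.5 and 12.0 CPM (2.96, SE 0.245), and that at chr19:58285001-58285474 from 0.756 and 1.12 to 3.69 and 3.46 CPM (1.92, SE 0.332). All 3 calls held whichever library was left out.

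H3K9ac was higher in KI at 6 of the 46 regions outside the leading promoters, and 0 were lower, where 12.3% of all regions were called, 12.1% higher and 0.208% lower. At the strongest Gfra1 site (chr19:58363317-58366242) it stood at 0.355, 2.52 and 0.391 CPM in B6, 47.2 and 53.5 CPM in KI and 2.83 CPM in Spo11/Spo11. The log2 difference was 5.71 (SE 0.843, adjusted p = 0.0146). The other ATAC sites of Gfra1 were higher in H3K9ac as well, by 4.49 and 2.54, and a further Gfra1 region (chr19:58409779-58411069) by 3.19. In Etv5 a region at chr16:22405672-22406881 stood at 0.548, 1.57 and 0.848 CPM in B6 and 6.38 and 6.90 CPM in KI (2.78). In Zbtb16 a region at chr9:48778403-48779271 stood at 0.387, 0.819 and 0.685 CPM in B6 and 3.84 and 4.54 CPM in KI (2.75). KI lay above every B6 library at all 6, but all 6 calls were lost without B6 replicate 3 or without either KI library, and leaving out B6 replicate 2 gave 8 higher and 17 lower calls, where that fit called 28.7% of all regions higher and 26.8% lower.

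HELLS itself was found at 1 of these sites. Of the 2675 HELLS peaks of KI testis, 1 lay at the 10 genes, chr19:58364353-58365311 in the Gfra1 intron of the strongest KI site, and 0 lay at their promoters. Of all protein-coding genes, 3.23% had a HELLS peak in the gene body and 6.01% at the first TSS. The HELLS libraries gave 223 and 155 counts there, IgG 11 and input 21. By mean HELLS count it ranked 25 of 2675, and the medians over all peaks were 59 and 50 for HELLS, 9 for IgG and 16 for input. These are raw counts of single control libraries, so no test was made. The middle 200 bases of the peak (chr19:58364732-58364931, mm10, plus strand, CpG in capitals) hold 4 CpGs.
Gfra1: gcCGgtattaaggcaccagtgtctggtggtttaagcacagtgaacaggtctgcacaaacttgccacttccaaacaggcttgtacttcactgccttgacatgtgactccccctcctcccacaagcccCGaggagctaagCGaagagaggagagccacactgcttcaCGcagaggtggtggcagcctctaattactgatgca

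**Figure D4:**
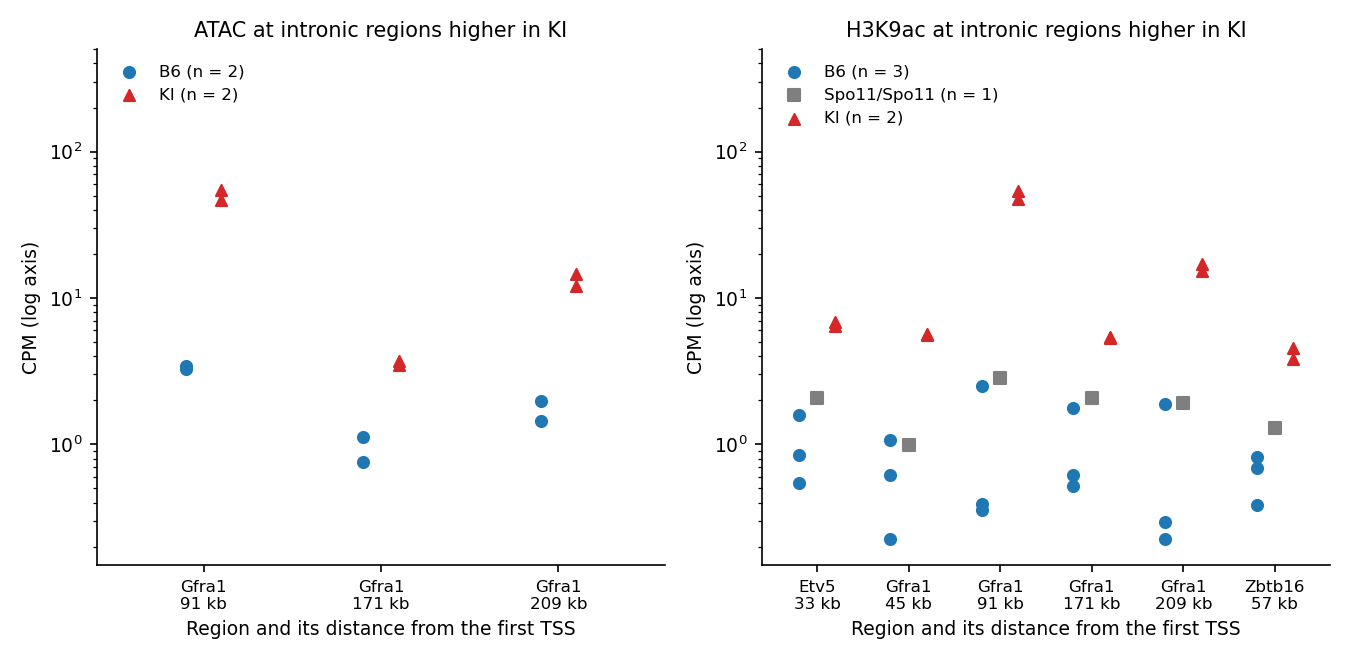
Level in CPM on a log axis at the regions that were higher in KI, for ATAC (3 regions of Gfra1) and H3K9ac (6 regions of Gfra1, Etv5 and Zbtb16). Points are single libraries of B6 and KI, and of Spo11/Spo11 for H3K9ac. KI libraries lie above all B6 libraries at each region, and B6 replicate 2 is the highest B6 library of H3K9ac.

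The hotspot regions of Kit and Dmrt1 gave no H3K9ac call in KI with all libraries. At the intragenic start of Kit (chr5:75641591-75642720) the libraries had 1.13, 7.93 and 1.57 CPM in B6, 0.833 and 1.39 CPM in KI and 5.66 CPM in Spo11/Spo11 (KI against B6 −1.64, adjusted p = 0.351, and −0.31, adjusted p = 0.463, without B6 replicate 2). The 2 high values belong to the libraries with high hotspot levels throughout. The Dmrt1 hotspot lay in a broad acetylated region (chr19:25572846-25577244) with 23.1, 15.99 and 22.5 CPM in B6, 12.3 and 11.8 CPM in KI and 14.7 CPM in Spo11/Spo11. Its KI difference was −0.77 (SE 0.219, adjusted p = 0.0968), and KI lay below every B6 library. It was called lower without B6 replicate 2 (−0.92, adjusted p = 6.76e-07) and by DESeq2 (adjusted p = 0.0390), but not when another library was left out (adjusted p up to 0.499). The other regions with a het peak gave no call: in H3K9ac the log2 differences were −0.53 at Foxo1 (from 52329118), 0.14 and −1.29 at Kit (from 75632068 and 75633938) and −0.45 and −0.46 at Zbtb16 (from 48692124 and 48806273). Without B6 replicate 2 these were 0.52, 0.04, −0.33, 0.44 and 0.69, with the sign turned at Foxo1 and Zbtb16. ATAC at the internal start of Kit (from 75641989) differed by −0.15 between KI and B6.

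H3K9ac of the single Spo11/Spo11 library called 0 of 10 promoters against B6 and 0% of all regions, though 3616 regions passed an unadjusted p of 0.05. Of the 10 genes, 4 lay above every B6 library, which was not counted over all promoter regions. Log2 differences were above 0 at 6 of the 10 genes and at 14080 of all 25542 promoter regions. Sohlh2 was the farthest, at 36.9 CPM against 23.8, 26.3 and 22.6 CPM in B6 (0.61, SE 0.193, adjusted p = 0.924). Without B6 replicate 2, Sohlh2 was called higher (0.67) and Lin28a lower (−0.45), where 18.4% of all promoter regions were called higher and 12.5% lower. In that fit the Kit hotspot was called higher (2.07) and that of Dmrt1 lower (−0.64), where 23.1% of all regions were called higher and 12.7% lower.

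In the F1 hybrids both alleles share each nucleus, and the share of B6 counts was compared within each library. No label names the alleles of the columns: those marked B were read as B6 and those marked C as CAST, and the B columns held 93.6%, 93.3% and 97.8% of counts on the X chromosome. All directions below rest on that reading. Over autosomes B6 took 50.5% and 50.4% of allele counts in the ATAC libraries and 51.2% in H3K9ac. At the promoters 2 of the 10 genes had fewer B6 counts and 0 had more, where 11.8% of all promoter regions tested were called, 8.11% higher and 3.67% lower. At Dmrt1 B6 had 134 of 316 and 113 of 295 ATAC counts, or 42.4% (exact 95% binomial interval 36.9 to 48.1) and 38.3% (32.7 to 44.1). The log2 ratio was −0.56 (SE 0.147, adjusted p = 0.0128), and the H3K9ac share was 45.1% (40.9 to 49.5). At Foxo1 the ATAC shares were 46.2% (43.4 to 48.9) and 45.0% (41.9 to 48.1), with a log2 ratio of −0.25 (SE 0.0784, adjusted p = 0.0354), and the H3K9ac share was 52.3% (48.5 to 56.1). DESeq2 called neither (adjusted p = 0.512 and 0.699; over the alternatives from 0.000554 and 0.00151). The intervals cover counting error only.

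The other 8 promoters ranged from −0.27 to 0.26 in log2 ratio, and the Gfra1 promoter held only 21 and 11 ATAC allele counts. Of the 6 sites with higher H3K9ac in KI, 5 could also be read by allele, and the Gfra1 site from 58409919 had 0 allele counts. At the HELLS site of Gfra1, B6 had 345 of 631 and 250 of 459 ATAC counts, or 54.7% (50.7 to 58.6) and 54.5% (49.8 to 59.1), with a log2 ratio of 0.26 that did not pass (adjusted p = 0.127), and 59.3% (52.1 to 66.2) of H3K9ac counts. Both alleles gave open-chromatin counts there. At the Zbtb16 region higher in KI the B6 shares were 29.8% and 40.6%, and at that of Etv5 75.9% and 64.7%. At the remaining Gfra1 sites they were 48.1% and 37.8% (from 58246069) and 37.1% and 43.1% (from 58284541).

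A Zbtb16 intron region about 59 kb from the TSS (chr9:48776373-48777932) leaned furthest to CAST. B6 had 7 of 33 and 5 of 38 ATAC counts, or 21.2% (8.98 to 38.9) and 13.2% (4.41 to 28.1), and 6 of 55 H3K9ac counts, or 10.9% (4.11 to 22.2). The log2 ratio was −2.27 (SE 0.475, adjusted p = 0.00219). It was the only one of the 13 other regions tested that was called, where 13.7% of all regions were, 8.22% higher and 5.53% lower, and DESeq2 did not call it (adjusted p = 0.163, over the alternatives from 4.16e-05).

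**Figure D5:**
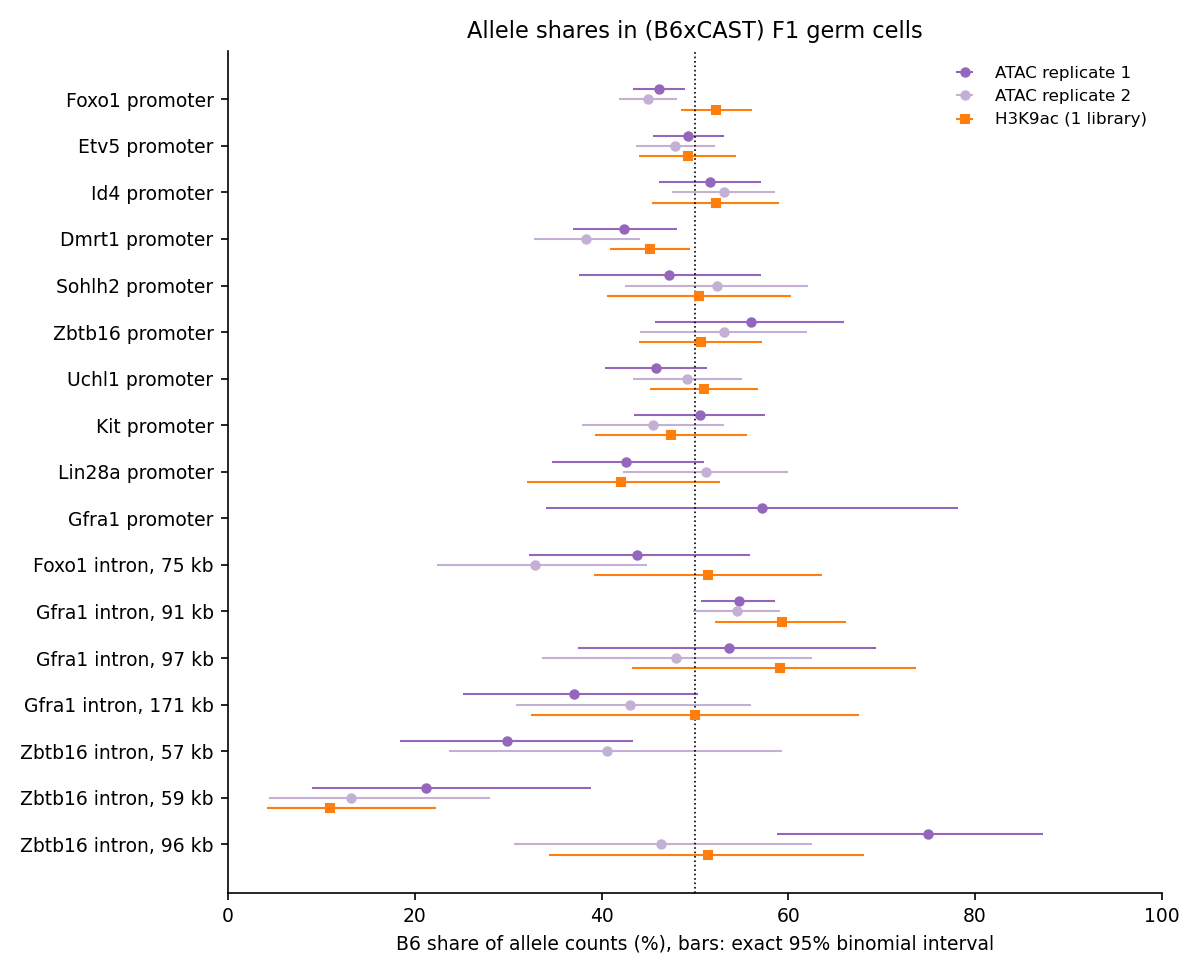
Share of B6 allele counts in percent at the promoters and the best covered intron regions of the 10 genes in F1 hybrids, with exact 95% binomial intervals, for the 2 ATAC libraries and the H3K9ac library. The line marks equal shares. Only libraries with at least 20 allele counts at a region are drawn, so that the Gfra1 promoter has 1 point. Among the promoters both ATAC intervals of Dmrt1 and of Foxo1 lie below the line, and the Zbtb16 intron region is the lowest.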

How the data were processed

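The series holds 51 samples of mouse male germ cells and testis. The ATAC, H3K9ac, H3K4me3 and HELLS files hold deposited raw counts per region. The F1 file holds deposited estimated counts for each allele of a region, rounded here to whole numbers. The deposited DMC1 lists held peak positions without a score, 1 merged list per genotype, and a deposited segmentation assigned 11 numbered states. The submitters' processing notes name BWA 0.7.15, Bowtie 0.12.9, CASAVA, MACS 1.4.2 and mm10; which tool made which file is not given in the sources used here. Columns whose names matched no sample (10) and duplicated regions of the Hells ATAC table (56) were left out, and ATAC of DBA/2J and of the Spo11 genotypes was not used here. B6 and KI ATAC columns name the strain but no sample, so that replicate numbers there, as in the other groups, only name libraries.

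Genes were taken from GENCODE M21. Overlap meant at least 1 bp, and where a gene had several promoter regions the one with the highest mean CPM was its leading region. Count tests used the quasi-likelihood method of edgeR 4.0.16 (TMM scaling, filterByExpr, Benjamini-Hochberg over all regions, threshold 0.05) in R 4.3.3. ATAC fits held the compared groups, and H3K9ac and H3K4me3 fits held all their groups. F1 alleles were compared within libraries (library as block), and a region needed 20 or more allele counts. The tests were tried on simulated data with randomly chosen regions changed by a known fold. Changes of 2-fold were called at 1% (H3K9ac of Spo11/Spo11) to 56% (H3K4me3 against all HELLS-competent libraries) of them. Changes of 4-fold were called at 23% (H3K9ac of Spo11/Spo11) to 97% (ATAC of KI), so that small changes could be missed. DESeq2 1.42.0, other scalings and filters, and leaving out each library served as alternatives, and within-batch differences were added after the data were seen. The labels do not say whether replicate libraries came from separate animals, and the p-values describe only their spread, which may be technical. All 10 genes are named, with each region that was called with all libraries or held a het DMC1 or HELLS peak. Genes of the signalling partner and other spermatogonial lists are named where their promoter was called, at most 3 per list and direction. Called promoters of the remaining lists were not all named. The 7 genes named for a CKO DMC1 peak, and Ret, Ptprc, Tssk2 and Prm2, fall outside that rule. The members and lists were chosen with earlier results of these data known. RefSeq held no promoter entry used here for Dmrt1 and Zbtb16.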

Additional observations from a re-analysis of the deposited data

How the results depend on the processing

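Of 1299 single values recomputed under alternatives, over 160 results, 1221 kept direction and side of the threshold, 48 were no longer called, 30 became called and 0 called values changed direction. Counts of called regions moved more. In ATAC of KI against B6, leaving out 1 library gave 0 to 5 called promoters (1 with all) and up to 5 other regions (3 with all). In H3K9ac of KI against B6 it gave 0 to 5 promoters (0 with all) and 0 to 25 other regions (6 with all), and in H3K9ac of Spo11/Spo11 against B6 0 to 2 promoters and 0 to 21 other regions (0 with all), the highest counts each without B6 replicate 2. In H3K4me3 of Hells CKO against Hells wt, the 5 other regions became 3 under relative log expression scaling, and leaving out 1 library gave 2 (without CKO replicate 3) to 7. Against all HELLS-competent libraries, the called promoter was lost with library size alone (0), leaving out 1 library gave 0 to 3 promoters, and the 11 other regions became 9 to 17, the 17 (7 higher and 10 lower) without CKO replicate 1. In the F1, the 2 called promoters became 1 at a minimum of 10 allele counts and 0 with DESeq2, which also left 0 of the 1 other region. The cause was not tested. No paired analysis was possible because the replicate numbers were given in column or accession order and do not pair libraries. A block on the library batches of the labels, for ATAC of Hells CKO against Hells wt, called 0 promoters and 0 other regions, as without it. Groups of 1 or 2 libraries limit the precision of every comparison, and DMC1 lists allow none between replicates.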
